A study of Homo sapiens with 18 samples.

Results

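Cadherins hold neighbouring cells together through their extracellular domains, and their cytoplasmic tails bind catenins that link them to the actin cytoskeleton. Beta-catenin and plakoglobin bind the tail of a classical cadherin, p120-catenin binds the same tail close to the membrane and keeps the cadherin there, and alpha-catenin joins the complex to actin. Urothelium is known for E-cadherin junctions, and exchange of E-cadherin for N-cadherin is a common readout of epithelial-mesenchymal transition (EMT) in bladder cancer, where beta-catenin also acts in Wnt signaling. The genes described here are 10 of the 39496 genes counted, chosen by name: the cadherins *CDH1*, *CDH2*, *CDH3*, *CDH6*, *CDH11* and *CDH13*, and the catenins *CTNNA1*, *CTNNB1*, *CTNND1* and *JUP*.

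The RNA came from UM-UC-3 and T24, 2 established human lines that the labels describe as transitional cell cancer of the bladder, with wild-type genotype in every sample. Each line received a control siRNA (siNC), siACAT1-1 or siACAT1-2, the last 2 of different sequence and directed against *ACAT1*, a mitochondrial acetyl-CoA acetyltransferase. This made 6 groups of 3 libraries. The series text calls the 3 repeats independent experiments, and no time after transfection is given in the sources used here. UM-UC-3 cells were kept in MEM and T24 cells in RPMI-1640, so cell line and medium cannot be told apart. The comparisons ask how the adhesion genes differ between the lines and whether they move when *ACAT1* is lowered, since the study followed E-cadherin and N-cadherin protein by immunoblotting as EMT markers. The values here are of RNA and do not measure protein.

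*ACAT1* was 46.0 ± 1.68 RPKM (counted reads scaled to gene length and to the total of the library; mean ± SD, n = 3) in UM-UC-3 cells with siNC and fell to 3.05 with siACAT1-1 and to 2.16 with siACAT1-2. The T24 means in the same order were 16.2 ± 1.40, 1.29 and 0.792. Libraries held 25163490 to 34417230 counted reads. Of 14 urothelial and epithelial marker genes in the table, 7 had a median of at least 1 RPKM over the 9 T24 libraries and 3 over the 9 UM-UC-3 libraries, and their summed level was 302 to 1101 RPKM in T24 cells against 131 to 211 in UM-UC-3 cells. *KRT8* and *KRT18*, keratins of simple epithelia, were high in both lines (*KRT18* medians 235 and 108 RPKM in T24 and UM-UC-3 cells). The uroplakins *UPK1B* and *UPK3A*, which define differentiated urothelium, and the basal keratin *KRT5* had a median of 0 in both lines. The uroplakin *UPK2* was low and above 0 in every library (medians 0.448 RPKM in UM-UC-3 cells, 0.447 in T24), and *UPK1A* had medians of 0.237 and 0.0504 RPKM in the same order. Markers of other cell types were low apart from *CD68*: 5 endothelial genes summed to 0.0428 to 0.349 RPKM, 8 fibroblast genes to 5.59 to 12.8 RPKM in UM-UC-3 against 1.96 to 2.91 in T24 cells, and of 5 immune genes the other 4 had a median of 0 in both lines. *CD68*, which many cancer lines transcribe, had a median of 168 RPKM in UM-UC-3 cells and, at 15.7 to 169 RPKM, of 36.6 in T24 cells, and its part in the results was not tested.

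Neither line transcribed E-cadherin at a level these libraries could measure. *CDH1* (E-cadherin, the main epithelial cadherin; chromosome 16, 68737225 to 68835548 of GRCh38, plus strand) had 9 reads over all 18 libraries. Of these, 6 came from siACAT1-1 replicate 3 in UM-UC-3 cells, 1 from siACAT1-1 replicate 1 in T24 cells and 2 from siACAT1-2 replicate 3 in T24 cells. All 6 siNC libraries had 0 reads. If reads are counted singly, a count of 0 still allows 3 reads. These would be 0.0151 to 0.0172 RPKM in UM-UC-3 libraries and 0.0141 to 0.0193 in T24 libraries. Low counts were mostly even in these libraries, so this limit may be too low. The antisense gene RP11-354M1.2 shares 347 bases (5.62%) with the exons of *CDH1*, so single reads may belong to either. No change of E-cadherin RNA with either siRNA was detectable at this depth, and no fold change is given.

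*CDH3* and *CDH6* were as close to the limit. *CDH3* (P-cadherin, the cadherin of basal epithelial cells; chromosome 16, 68636189 to 68722616, plus strand) had 30 reads over the 9 UM-UC-3 libraries, 0 to 8 in each, and 6 over the 9 T24 libraries, 0 to 2 in each. *CDH6* (K-cadherin, a kidney cadherin; chromosome 5, 31193750 to 31329146, plus strand) had 6 reads in each line. *CDH11* (cadherin-11, a mesenchymal cadherin; chromosome 16, 64943753 to 65126112, minus strand) had 48 reads in UM-UC-3 against 58 in T24 cells, 0 to 12 per library. The first 3 of these low cadherins, *CDH1*, *CDH3* and *CDH6*, did not pass the filter on low counts, and 7 of the 10 genes were tested.

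N-cadherin made up nearly all RNA of the 6 cadherins chosen by name in UM-UC-3 cells, and T24 cells had about 3 times as much of it together with T-cadherin. *CDH2* (N-cadherin, the cadherin of neural and mesenchymal cells; chromosome 18, 27950966 to 28177446, minus strand) was 4.15, 3.89 and 4.05 RPKM in siNC replicates 1 to 3 of UM-UC-3 cells. In T24 cells the siNC libraries gave 14.8, 8.25 and 14.96 RPKM. Every T24 value lay above every UM-UC-3 value, also over the 9 libraries of each line, where the highest UM-UC-3 value was 4.43 and the lowest T24 value 4.59. Such a separation of all 9 libraries held for *CDH2* and *CDH13* among the 7 tested genes, against 28.9% of all genes tested. *CDH2* was lower in UM-UC-3 cells by a log2 fold change of -1.62 (SE 0.32, adjusted p = 0.0007, quasi-likelihood test of edgeR, Benjamini-Hochberg over 20144 genes, as for every adjusted p here). Its share of the summed RPKM of the 6 cadherins was 97.6 to 99.9% in UM-UC-3 libraries and 71.0 to 93.6% in T24 libraries.

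*CDH13* (T-cadherin, which is anchored to the membrane by a lipid and has no tail for catenins; chromosome 16, 82626803 to 83800640, plus strand) separated the lines most widely. Its siNC libraries held 563, 527 and 725 reads in T24 cells, or 1.46, 1.67 and 2.31 RPKM. In UM-UC-3 cells the same libraries held 2, 2 and 0 reads. Per counted read, *CDH13* was 457-fold higher in T24 cells (95% counting interval 178 to 1678, adjusted p = 7.8e-10 in edgeR). Over the 9 libraries of each line, 4973 reads stood against 16, a ratio of 315 (194 to 552). The intervals cover counting error only, and they are too narrow because low counts were mostly even.

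The catenins were transcribed in both lines, and alpha-catenin was the most abundant of them. *CTNNA1* (alpha-E-catenin, the actin link; chromosome 5, 138610967 to 138935034, plus strand; 445 exon bases shared with the antisense gene *LRRTM2*) was 41.5, 40.6 and 65.4 RPKM in siNC replicates 1 to 3 of UM-UC-3 against 30.8, 44.8 and 38.8 in T24 cells. The groups overlapped, and the log2 difference of 0.41 (SE 0.19) did not pass the test (adjusted p = 0.0909, edgeR). *CTNND1* (p120-catenin; chromosome 11, 57753243 to 57819546, plus strand; 321 exon bases shared with the readthrough gene TMX2-CTNND1 on the same strand) was 12.9, 14.0 and 12.4 RPKM in UM-UC-3 against 9.003, 10.4 and 9.47 in T24 cells, groups that did not overlap. It was higher in UM-UC-3 cells by 0.49 (SE 0.16, adjusted p = 0.0187, edgeR). Its call was lost without UM-UC-3 siNC replicate 2 (adjusted p = 0.0710, edgeR), without T24 siNC replicate 3 (0.0780) and when no gene was filtered (0.150).

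*CTNNB1* (beta-catenin; chromosome 3, 41194837 to 41260096, plus strand) was 9.83, 13.1 and 8.38 RPKM in siNC libraries of UM-UC-3 against 13.9, 12.6 and 12.7 in T24 cells, with 1 UM-UC-3 library inside the T24 range. The log2 difference was -0.28 (SE 0.24, adjusted p = 0.377, edgeR). *JUP* (plakoglobin, or gamma-catenin, which serves both adherens junctions and desmosomes; chromosome 17, 41754604 to 41786931, minus strand) was the scarcest catenin, with 16, 24 and 40 reads in UM-UC-3 siNC libraries and 40, 54 and 70 in T24 siNC libraries. Its levels were 0.115, 0.151 and 0.262 RPKM against 0.235, 0.388 and 0.505, which overlapped, and the log2 difference was -1.03 (SE 0.45, adjusted p = 0.0742, edgeR).

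**Figure D1:**
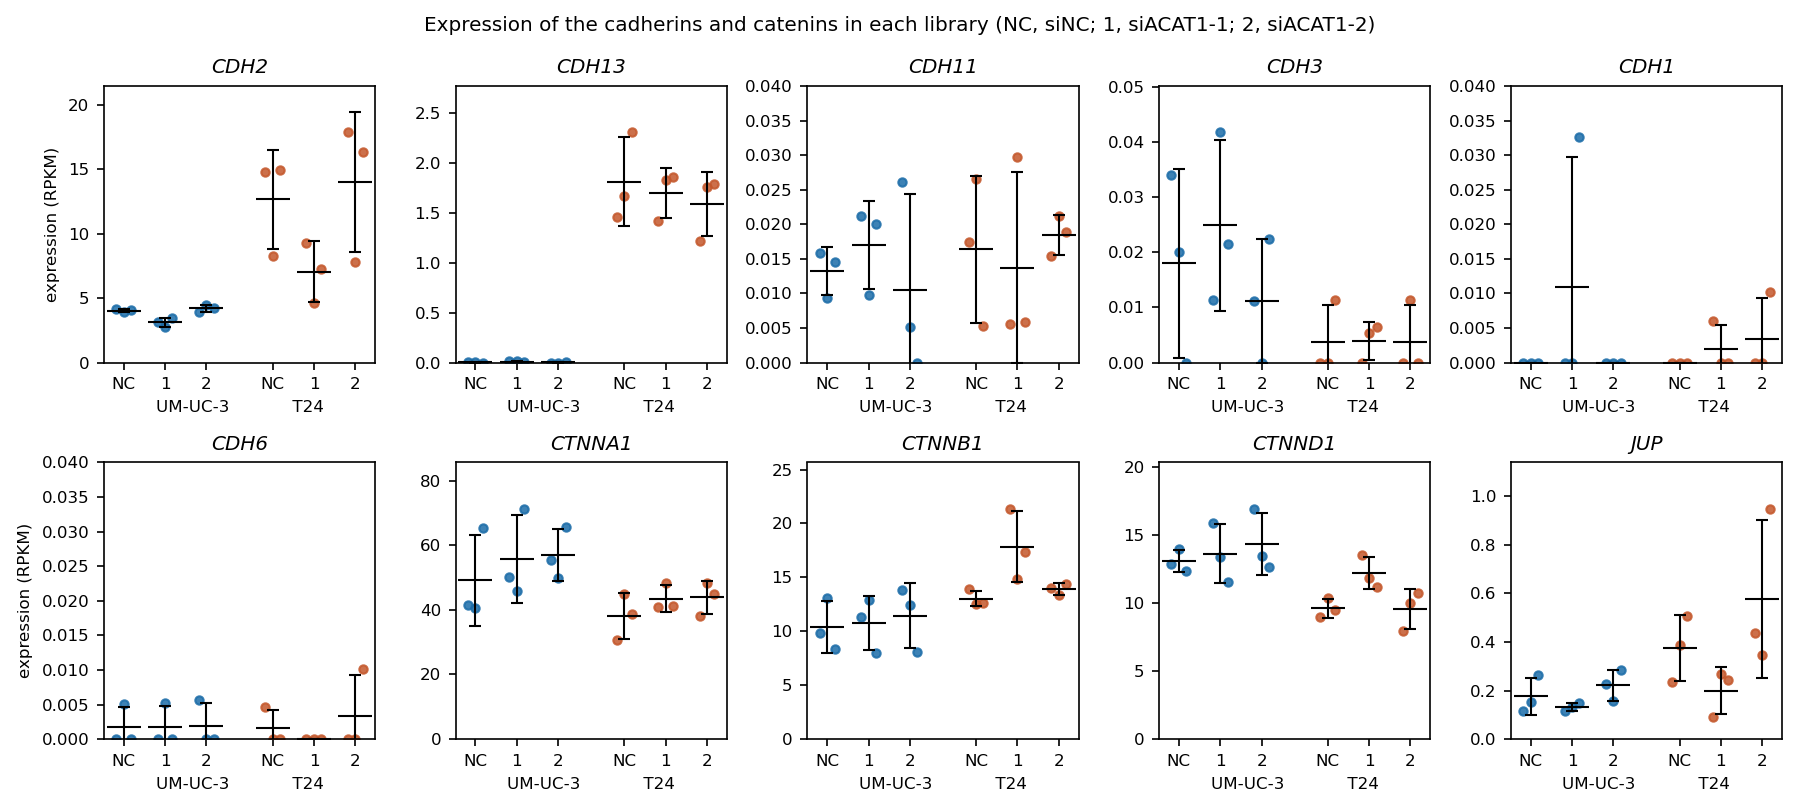
Expression in RPKM (y axis, from 0, with its own scale in each panel) of the 10 genes in the 18 libraries. Points are libraries in the order of replicates 1 to 3, blue for UM-UC-3 and orange for T24, and black bars are the group mean ± SD (n = 3). *CDH13* lies at or near 0 in UM-UC-3 and between 1.22 and 2.31 RPKM in T24 cells, and *CDH1*, *CDH3*, *CDH6* and *CDH11* stay below 0.05 RPKM in both lines.

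Per length, the order of the levels with siNC was *CTNNA1*, *CTNND1*, *CTNNB1*, *CDH2* and *JUP* in UM-UC-3 cells, where *CTNND1* and *CTNNB1* (13.1 ± 0.831 and 10.4 ± 2.41 RPKM) overlapped. In T24 cells it was *CTNNA1*, *CTNNB1*, *CDH2*, *CTNND1*, *CDH13* and *JUP*. Here *CTNNB1* (13.03 ± 0.732 RPKM), *CDH2* (12.7 ± 3.82) and *CTNND1* (9.62 ± 0.705) were not separated as a series, because the range of *CDH2* reached over both neighbours. The remaining genes of the 10 lay below these in each line. Cadherins outside the 10 did not: *CDH18*, *CDH10* and *CDH4* were 1.82, 1.54 and 0.857 RPKM in UM-UC-3 siNC libraries, and *CDH4* was 2.48 RPKM in T24 siNC libraries.

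In all, 3 of the 7 tested genes differed between the lines (*CDH2*, *CDH13* and *CTNND1*), against 44.3% of all genes tested, so the share is close to that of any gene. Same-numbered libraries within a line deviated in the same direction across genes, and with the replicate number within a line as a block 6 of 7 passed, against 61.7% of all genes. The block added *CTNNA1* (0.39, adjusted p = 0.0021, edgeR), *CTNNB1* (-0.30, adjusted p = 0.0357) and *JUP* (-1.02, adjusted p = 0.0116). With the mean of the 3 treatments in each line, 6 of 7 passed as well, against 66.1% of all genes. *CDH11* did not pass in either model (log2 difference -0.27, SE 0.85, adjusted p = 0.822 without the block). The siNC ranges in RPKM did not overlap for *CDH2*, *CDH13* and *CTNND1*, against 53.2% of all genes tested.

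**Figure D2:**
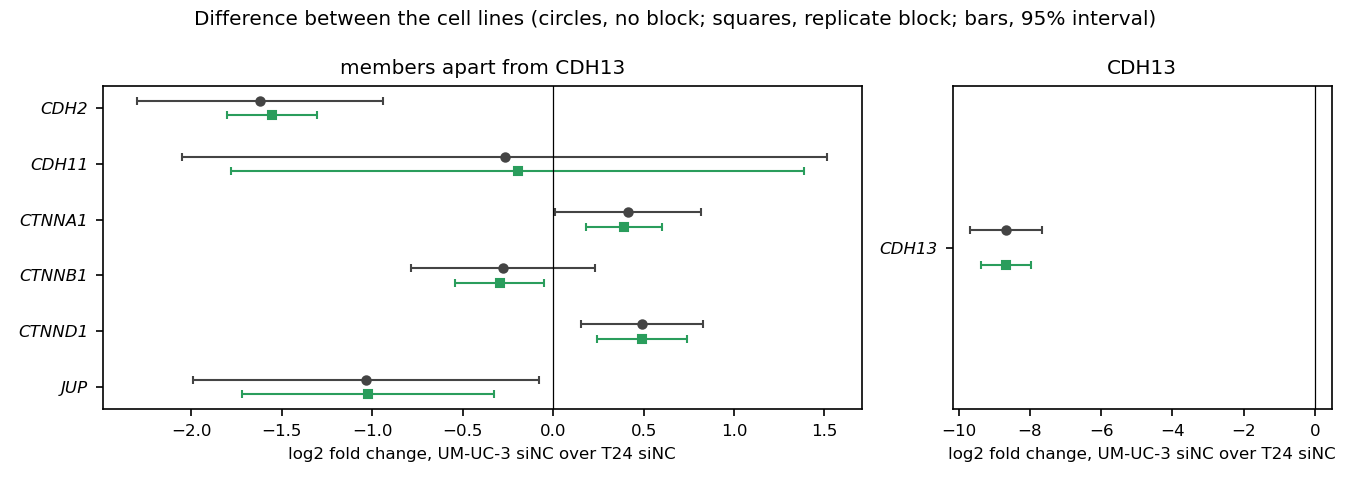
Log2 fold change of UM-UC-3 siNC over T24 siNC (x axis) for the 7 tested genes, with *CDH13* on its own axis. Circles are the model without the replicate block, squares the model with it, and bars the 95% interval. *CDH2* lies at -1.62 and *CTNND1* at 0.49 without the block, and *CDH13* rests on 4 reads in UM-UC-3 cells, so its fitted value depends on how low counts are treated.

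The rest of the adhesion machinery differed between the lines most at the desmosome, the junction that anchors keratin filaments and shares *JUP* with adherens junctions. Of all genes tested, 22% were higher and 22.3% lower in UM-UC-3 cells. Of 7 desmosome genes tested, 6 were lower in UM-UC-3 cells and 0 higher, with a median log2 fold change of -7.00 against 0.03 over all genes tested. *DSP*, the plakin that ties desmosomes to keratin, was 18.9 ± 3.74 RPKM in T24 siNC libraries and 0.109 ± 0.0181 in UM-UC-3 siNC libraries (-7.39, SE 0.29, adjusted p = 6.0e-11, edgeR). The desmosomal cadherin *DSC3* had 3217 reads in the T24 siNC libraries and 2 in those of UM-UC-3 cells, *DSC2* had 708 and 2, and the plaque protein gene *PKP2* had 838 and 6. *DSG2*, another desmosomal cadherin, was 15.2 ± 0.796 RPKM in T24 cells and 1.205 ± 0.121 in UM-UC-3 cells. *PKP3* was the tested gene that did not pass (1.36 ± 0.413 and 1.78 ± 0.290 RPKM, log2 difference 0.42, adjusted p = 0.384). This list goes with an epithelial marker sum that was also higher in T24 cells, and the part of either in the other was not tested.

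Other classical cadherins went both ways. Of 8 tested, 4 were higher and 2 lower in UM-UC-3 cells (median 1.94 against 0.03 over all genes). The neural cadherins *CDH18* and *CDH12* were 1.82 ± 0.405 and 0.745 ± 0.163 RPKM in UM-UC-3 siNC libraries, with 799 and 399 reads, against 6 and 4 reads in T24 cells. *CDH9* had 26 reads against 0, and *CDH8* went the other way with 2 against 49 reads. Of 4 other genes tested that belong to the catenin family or encode a catenin-binding protein, 1 was higher in UM-UC-3 cells and 0 lower (median -0.18): *CTNNBIP1*, not a catenin but an inhibitor of the binding of beta-catenin to TCF factors, was 8.43 ± 1.19 RPKM against 3.42 ± 1.36 (1.33, SE 0.37, adjusted p = 0.0080, edgeR). *CTNNAL1* (alpha-catulin), named after its values were seen, was above *CTNNA1* in both lines, at 69.9 ± 1.21 RPKM in UM-UC-3 against 89.1 ± 19.8 in T24 cells.

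Of 11 adherens junction partners, 2 were higher and 6 lower in UM-UC-3 cells (median -0.71). *NECTIN1* (2.35) and *MLLT4*, which encodes afadin, the actin adaptor of nectins (1.40), were higher, whereas *NECTIN3* (-2.14) and *LIMA1*, an actin-binding partner of alpha-catenin (-1.66), were lower. Of 11 tight junction genes, 3 were higher and 4 lower (median -0.13). The adhesion molecule *F11R* was 0.120 ± 0.0348 RPKM in UM-UC-3 against 0.949 ± 0.351 in T24 cells. *MARVELD2*, a tricellular junction protein gene, had 0 reads in UM-UC-3 siNC libraries and 76 in T24 siNC libraries, while *TJP3* had 26 and 0.

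Genes around beta-catenin showed no common direction. Of 17 genes of the destruction complex and the Wnt receptors, 5 were higher and 4 lower in UM-UC-3 cells (median 0.11), with the receptor *FZD7* lower (-2.09) and the coreceptor *LRP5* (1.47) and the transcription factors *TCF7L1* (1.19) and *TCF7L2* (1.11) higher. Of 9 beta-catenin target genes tested, 4 were higher and 2 lower (median 0.28). The Wnt inhibitor *DKK1* was 19.7 ± 7.28 RPKM in T24 cells and 0.133 ± 0.108 in UM-UC-3 cells. *NKD2*, an antagonist of Dishevelled, was 1.17 ± 0.260 RPKM in UM-UC-3 cells and had 0 reads in T24 siNC libraries, and its paralog *NKD1* had 180 and 12 reads. *SP5* had 0 reads in UM-UC-3 siNC libraries and 36 in those of T24 cells. Of 7 genes of cadherin processing, 2 were higher and 1 lower (median -0.13): *ADAM10*, the sheddase of E- and N-cadherin, was 6.39 ± 0.357 RPKM in UM-UC-3 against 1.95 ± 0.355 in T24 cells (1.75, SE 0.21, adjusted p = 4.0e-06, edgeR), the gamma-secretase subunit *PSENEN* was higher as well (1.49), and *ADAM15* was lower (-0.87).

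The repressors of *CDH1* were split between the lines, which both lacked measurable E-cadherin RNA. Of 8 repressors and epithelial activators tested, 2 were higher and 3 lower in UM-UC-3 cells (median -0.74). *SNAI2* (Slug) was 0.615 ± 0.237 RPKM in UM-UC-3 cells and 15.4 to 74.3 RPKM in the 3 T24 siNC libraries (-5.79, SE 0.70, adjusted p = 5.2e-06, edgeR). *ZEB1* was transcribed in both, at 32.2 ± 2.85 RPKM in UM-UC-3 against 14.2 ± 2.18 in T24 cells (1.23, SE 0.20, adjusted p = 0.0001). *SNAI1* (Snail) was low, with 60 reads over the UM-UC-3 siNC libraries and 8 over those of T24 cells (2.85, SE 1.10, adjusted p = 0.0443), and the epithelial factor *ELF3* had 0 and 18 reads.

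**Figure D3:**
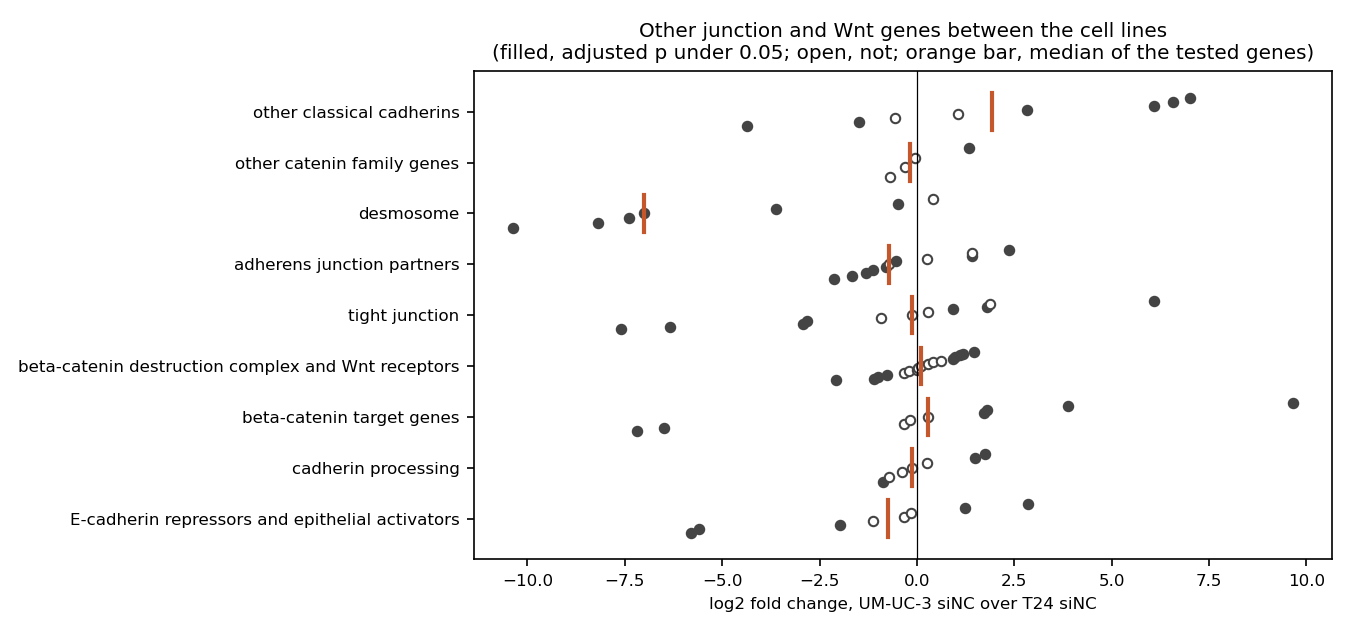
Log2 fold change of UM-UC-3 siNC over T24 siNC (x axis) for the tested genes of 9 lists around the cadherins and catenins (y axis). Each point is a gene, filled where its adjusted p was under 0.05, and the orange bar is the median of the list. Values beyond about 4 on either side come mostly from genes with few or 0 reads in 1 line. The desmosome list has its median at -7.00, and the medians of the other 8 lists lie between -0.74 and 1.94.

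When *ACAT1* was lowered, none of the 7 tested genes passed the test against siNC in either line with either siRNA in the model without the block. All genes gave few calls in the same comparisons: in UM-UC-3 cells 0.00993% for siACAT1-1 and 0.0546% for siACAT1-2, in T24 cells 0.124% and 0.268%. An unadjusted p under 0.05 was reached in edgeR by *CDH2* and *CTNND1* for siACAT1-1 in T24 cells and by 0 of the 7 in the other 3 comparisons, against 2325 of 20144 genes in the first and 777 to 1700 in the others. DESeq2 also called 0 of the 7 in each of the 4. With the replicate block, the comparison of siACAT1-1 with siNC in T24 cells called 2 of the 7 (*CDH2* lower, *CTNNB1* higher), against 13.9% of all genes, and the other 3 comparisons called 0 of 7 (3.06%, 1.36% and 8.48% of all genes). Both siRNAs of a line were compared with the same siNC libraries, so their values are given side by side. In bulk RNA, fewer cells that transcribe a gene and less RNA of it per cell cannot be told apart.

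With siACAT1-1 *CDH2* was below siNC in both lines, and the change passed the test in T24 cells with the block. In UM-UC-3 cells its level was 3.15, 2.78 and 3.45 RPKM with siACAT1-1 in replicates 1 to 3 and 3.93, 4.43 and 4.26 with siACAT1-2, against 4.15, 3.89 and 4.05 with siNC. In T24 cells it was 9.28, 4.59 and 7.27 with siACAT1-1 and 17.9, 7.83 and 16.3 with siACAT1-2, against 14.8, 8.25 and 14.96 with siNC. The siACAT1-1 library was the lowest of its replicate number in all 6 sets of 3 libraries, whereas the siNC and siACAT1-2 libraries changed places. In UM-UC-3 cells the siACAT1-1 and siNC ranges did not overlap, as for 12.7% of all genes, and in T24 cells they did.

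The log2 fold change of *CDH2* with siACAT1-1 was -0.84 in T24 cells (SE 0.32, adjusted p = 0.302 without the block; -0.84, SE 0.12, adjusted p = 1.7e-04 with it, edgeR) and -0.37 in UM-UC-3 cells (SE 0.32, adjusted p = 0.982; with the block SE 0.12, adjusted p = 0.0990). Within the pairs of the same replicate number, the RPKM differed from siNC by -37.2%, -44.4% and -51.4% in T24 cells and by -24.1%, -28.4% and -14.7% in UM-UC-3 cells. The direction was the same in 6 of 6 pairs, against 8.67% of all genes that were lower in 6 of 6. With siACAT1-2 the log2 fold changes were 0.17 (95% interval -0.49 to 0.84) in T24 cells and 0.02 (-0.64 to 0.69) in UM-UC-3 cells.

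The difference between the siRNAs was tested directly as siACAT1-2 minus siACAT1-1 over both lines. For *CDH2* it was 0.70 (SE 0.22, adjusted p = 0.106 without the block; 0.68, SE 0.08, adjusted p = 1.7e-05 with it, edgeR), higher with siACAT1-2 in 6 of 6 pairs, against 11.4% of all genes. Without the block 0 of the 7 genes passed this comparison and 2.56% of all genes did; with the block 2 of 7 and 20.6% did. *ACAT1* itself was lower with siACAT1-2 than with siACAT1-1 (-0.62, SE 0.15, adjusted p = 0.0340, edgeR), whereas *CDH2* was lower with siACAT1-1. A relation between the levels of these genes was not tested.

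The other gene of this pattern was *JUP*. In T24 cells it was 0.0897, 0.268 and 0.241 RPKM with siACAT1-1 and 0.439, 0.345 and 0.949 with siACAT1-2, against 0.235, 0.388 and 0.505 with siNC. In UM-UC-3 cells it was 0.115, 0.132 and 0.149 with siACAT1-1 and 0.227, 0.155 and 0.284 with siACAT1-2, against 0.115, 0.151 and 0.262 with siNC. The siACAT1-1 and siACAT1-2 ranges did not overlap in either line, against 14.8% of all genes in T24 cells and 17.5% in UM-UC-3 cells, while both overlapped siNC. In UM-UC-3 cells the nearest libraries, siACAT1-1 replicate 3 and siACAT1-2 replicate 2, had 22 reads each. Only the library totals set these apart.

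Over both lines the *JUP* difference between the siRNAs was 1.12 (SE 0.33, adjusted p = 0.0756 without the block; 1.10, SE 0.24, adjusted p = 0.0033 with it, edgeR), with the same direction in 6 of 6 pairs, against 11.4% of all genes higher in 6 of 6. Reads per library ranged from 12 to 149, and the highest, siACAT1-2 replicate 3 of T24 cells, set much of the T24 value against siNC, which was 0.66 with it and 0.10 without it. Against siNC *JUP* did not pass with either siRNA and either model (siACAT1-1 in T24 cells: -0.89, SE 0.45, adjusted p = 0.466; 0.0829 with the block). Over the 18 libraries, after the mean of each line was subtracted from log2(RPKM + 0.5), *CDH2* and *JUP* had a correlation of 0.51, given as a description of libraries that share siRNA and replicate number.

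**Figure D4:**
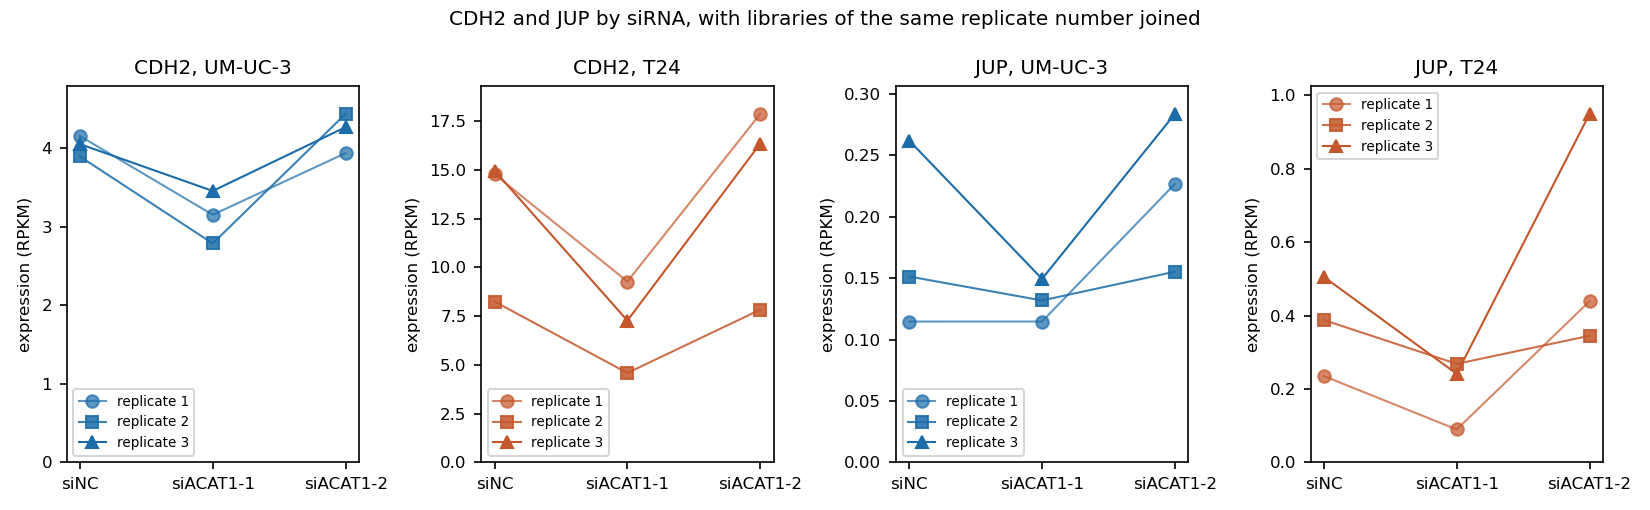
Expression of *CDH2* and *JUP* in RPKM (y axis, from 0) by siRNA (x axis) in each line, with lines that join libraries of the same replicate number (circles 1, squares 2, triangles 3). The siACAT1-1 library lies below the siACAT1-2 library in all 6 joined sets for both genes, and replicate 2 of T24 cells runs low in *CDH2* throughout, from 4.59 to 8.25 RPKM.

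Beta-catenin was higher with siACAT1-1 in T24 cells in the model with the block, and p120-catenin missed the threshold there. *CTNNB1* was 21.4, 14.8 and 17.4 RPKM there against 13.9, 12.6 and 12.7 with siNC, and 14.0, 13.4 and 14.4 with siACAT1-2. All siACAT1-1 values lay above all others, against 13.4% of all genes whose siACAT1-1 and siNC ranges did not overlap. Its log2 fold change was 0.47 (SE 0.24, adjusted p = 0.478 without the block; 0.45, SE 0.12, adjusted p = 0.0142 with it, edgeR).

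*CTNND1* was 13.5, 11.9 and 11.2 RPKM with siACAT1-1 in T24 cells against 9.003, 10.4 and 9.47 with siNC, and its ranges did not overlap either. The log2 fold change was 0.36 (SE 0.16, adjusted p = 0.388; 0.0516 with the block). In UM-UC-3 cells with siACAT1-1 the values were 0.04 (95% interval -0.47 to 0.55) for *CTNNB1* and 0.05 (-0.28 to 0.39) for *CTNND1*. Whether the lines respond differently was tested over both siRNAs, and 0 of the 7 genes passed with or without the block (lowest adjusted p 0.667, with the block, for *CTNNB1*), against 0% of all genes without it and 0.104% with it. Unadjusted p was under 0.05 for 517 of 20144 genes in that test and for 0 of the 7.

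*CTNNA1* was slightly higher with the siRNAs in the mean of the comparisons with the block. In UM-UC-3 cells its level was 50.2, 45.8 and 71.3 RPKM with siACAT1-1 and 55.4, 49.8 and 65.6 with siACAT1-2. In T24 cells it was 41.0, 48.2 and 41.1 with siACAT1-1 and 38.1, 48.4 and 44.9 with siACAT1-2. Each of these 12 libraries was above the siNC library of its replicate number, by 0.282% to 33.5%, against 1.75% of all genes that were higher in 12 of 12 pairs, in which each siNC library serves in 2. The mean of the 4 knockdown comparisons was 0.20 (SE 0.12, adjusted p = 0.593 without the block; 0.21, SE 0.06, adjusted p = 0.0337 with it, edgeR). In this mean 0 of the 7 genes passed without the block, against 0.223% of all genes, and 2 passed with it, *CTNNA1* higher and *CDH2* lower (-0.26, SE 0.07, adjusted p = 0.0190), against 12.4%.

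**Figure D5:**
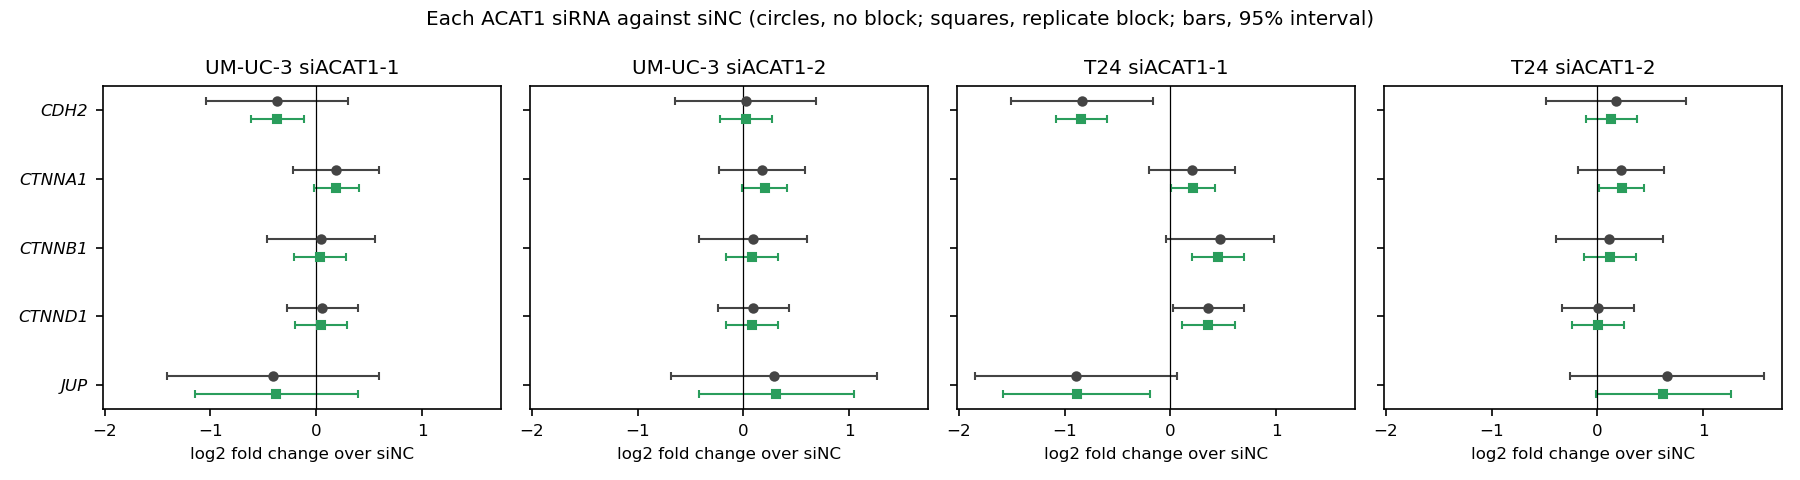
Log2 fold change over siNC (x axis) of 5 of the tested genes with each *ACAT1* siRNA in each line. Circles are the model without the replicate block, squares the model with it, and bars the 95% interval before any adjustment over genes. *CDH2* with siACAT1-1 in T24 cells lies at -0.84 in both models, and the bars of the blocked model are shorter for every gene shown.

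The remaining cadherins gave little to compare by siRNA. *CDH13* in T24 cells was 1.42, 1.83 and 1.86 RPKM with siACAT1-1 and 1.22, 1.76 and 1.79 with siACAT1-2, inside or just below the siNC range of 1.46 to 2.31. Its log2 fold changes there were -0.08 (95% interval -0.68 to 0.53) and -0.18 (-0.78 to 0.43). *CDH11* had 0 to 12 reads per library over the 6 groups, with intervals of the log2 fold change from -2.23 to 2.13 over the 4 comparisons.

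Several of these genes had the same replicate number as their highest or lowest in all 3 groups of a line. In T24 cells *CDH2* was lowest in replicate 2 of all 3 groups, at 0.458 to 0.555 times the mean of the other replicates, a pattern of 15.7% of all genes. *CTNNA1* was highest in the same T24 replicate of all 3 groups (1.17 to 1.29 times, 26% of all genes) and in replicate 3 of UM-UC-3 cells (1.25 to 1.59 times, 19.4% of all genes). *CTNNB1* was lowest in that UM-UC-3 replicate (0.614 to 0.731 times, 15.5% of all genes), as was *CTNND1* (0.791 to 0.919 times). *JUP* was highest in it (1.21 to 1.97 times, 19.4% of all genes). *CTNNB1* was lowest in replicate 2 of T24 cells as well (0.765 to 0.946 times, 15.7% of all genes). *CDH13* was lowest in replicate 1 of T24 cells (0.684 to 0.767 times, 16.7% of all genes) and highest in replicate 3 (1.15 to 1.48 times). *CTNNA1* was lowest in that replicate 1 (0.736 to 0.918 times) and in replicate 2 of UM-UC-3 cells (0.753 to 0.822 times). What a replicate number marks beyond an independent experiment is not given in the sources used here.

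Of the genes in the adhesion and Wnt lists, 1 passed a comparison by siRNA without the block: *CSNK1A1*, casein kinase 1 alpha, which primes beta-catenin for its destruction, was lower with siACAT1-2 than with siACAT1-1 over both lines (-0.63, SE 0.15, adjusted p = 0.0376, edgeR). It was 1 of 17 genes tested in its list, and 2.56% of all genes passed this siRNA difference. With the block 4 of these 17 were higher and 3 lower in it, against 20.6% of all genes called. Of 11 adherens junction partners the block called 2 higher and 0 lower with siACAT1-1 in T24 cells (13.9% of all genes). With siACAT1-2 there it called 3 higher and 2 lower (8.48%). The mean of the 4 comparisons gave 2 higher and 2 lower (12.4%), and the siRNA difference 2 higher and 1 lower (20.6%). With the block in T24 cells with siACAT1-1, 4 of 9 beta-catenin target genes were lower and 0 higher, beside a higher *CTNNB1*, against 7.31% of all genes lower. These were *CCND1* (cyclin D1, a target of many pathways; -0.86, adjusted p = 2.9e-04), *DKK1* (-0.65, adjusted p = 0.0172), *AXIN2*, a feedback inhibitor of the pathway (-1.57, adjusted p = 0.0054), and the transcription factor *LEF1* (-0.53, adjusted p = 0.0380), the last 2 named after their values were seen. *CCND1* was 107 ± 29.8 RPKM with siNC, 56.6 ± 5.06 with siACAT1-1 and 84.5 ± 18.0 with siACAT1-2, and *AXIN2* rested on 6 to 10 reads per siACAT1-1 library. Without the block none of the 4 passed (adjusted p from 0.158 to 0.599). Of 11 urothelial and epithelial markers tested, the same blocked comparison called 3 lower and 0 higher, against 7.31% of all genes lower. These were *KRT7*, *KRT18* and *KRT19* (-0.68, -0.33 and -1.14). The list median was -0.23, and 4 of the 11 were fitted higher without the block. In UM-UC-3 cells the block called 2 lower and 0 higher with each siRNA, against 3.06% and 1.36% of all genes called. With siACAT1-2 in T24 cells it called 1 higher and 0 lower (8.48%), and in the mean of the 4 comparisons 3 lower and 0 higher (12.4%). The summed marker level in UM-UC-3 cells was 166 to 211 RPKM with siNC, 131 to 144 with siACAT1-1 and 136 to 155 with siACAT1-2. In T24 cells these ranges overlapped. The part of these markers in the comparisons was not tested.

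The desmosome genes, which share *JUP*, gave 0 calls against siNC without the block. Their highest by mean RPKM, *DSP*, differed by 0.19 (SE 0.22, adjusted p = 0.816) in T24 cells with siACAT1-1. With the block in that comparison 1 of 7 was higher, *DSC3* (0.68, adjusted p = 0.0361), and 1 lower, *PKP2* (-0.76, adjusted p = 0.0159), against 13.9% of all genes called and 7.31% lower. *DSG2* was the 1 blocked call with siACAT1-2, higher in UM-UC-3 (0.68, adjusted p = 0.0206, 1.36% of all genes called) as in T24 cells (0.61, adjusted p = 0.0059, 8.48% of all genes called). In the siRNA difference the block called 2, *DSG2* and *PKP3*, both higher with siACAT1-2, against 20.6% of all genes, and in the mean of the 4 comparisons *DSG2* higher and *PKP2* lower, against 12.4%. The blocked calls were named after their values were seen. *SNAI2* and *ZEB1* had log2 fold changes of 0.31 (SE 0.56) and 0.30 (SE 0.20) in T24 cells with siACAT1-1 and did not pass in either model. Of the 8 E-cadherin repressors and epithelial activators tested, the block called 3 others lower and 0 higher there (median -0.50). Of all genes 7.31% were lower. In the mean of the 4 comparisons the block called 1 of the 8 higher, against 12.4% of all genes called. In the siRNA difference it called 1 higher and 1 lower, against 20.6%. The blocked calls of this list are given as counts only. Because the list joins repressors with activators, the counts do not tell more repression from less.

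The genes whose profile over the 18 libraries was most like that of *CDH2*, by the correlation of log2(RPKM + 0.5) after subtracting the mean of each line, were *DNAH11*, an axonemal dynein gene (0.95), a gene named only by its clone on chromosome 14, 50912226 to 50913358 (0.94), and *RWDD1* (0.93). For *CTNNA1* they were *GABARAPL1*, an autophagy gene (0.95), *ATXN1* (0.94) and RP11-327P2.5 (0.94). Among the 7 tested genes the closest pair was *CTNNB1* and *CTNND1*, at 0.71.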

How the data were processed

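RNA of 18 samples was made into stranded libraries with a kit that carries molecular identifiers. The authors used Trimmomatic 0.36 for filtering, STAR 2.5.3 for mapping to GRCh38 and featureCounts (Subread 1.5.1) for counting on exons. They deposited raw counts and RPKM values made from them, with gene lengths in the same table. Recomputing RPKM from counts and the total per library gave the deposited values within 4.4e-06. The annotation release, strand setting and use of the identifiers are not given in the sources used here. Of nonzero counts up to 20, 73.0% were even, as were 43 of 46 such counts of the genes described, so counting intervals are too narrow.

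The quasi-likelihood test of edgeR 4.0.16 (R 4.3.3) was run on the counts in 1 model of 6 groups and 18 libraries, after TMM scaling and filterByExpr by group, and was first tested on simulated data. The Benjamini-Hochberg adjustment covered 20144 genes, and calls were made at an adjusted p under 0.05. All 18 pairs of replicates differed beyond sampling noise (chi-square over degrees of freedom 11.8 to 174). Same-numbered libraries within a line had correlated deviations from their group means across genes in every pair (r from 0.554 to 0.825 in T24 cells and 0.249 to 0.817 in UM-UC-3 cells, 9 pairs each), so the replicate block is given where it changes a call. The pairing comes from these values, not from the labels.

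The genes and lists were chosen with earlier results of these data known. All 10 genes are named. From each list at most 4 called genes of largest fold change are named, or where none is called the 1 or 2 of highest mean RPKM. A gene that this rule names among the tight junction genes is not reported here. The 3 genes most like the most abundant cadherin and catenin are named as well. *DSG1*, *DSG3*, *DSG4*, *GRHL2* and *KRT20* were not analysed here. Alternatives were RLE scaling, no filter, DESeq2 1.42.0, fewer libraries in the model, the mean of the 3 treatments, the block, and leaving out each library.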

Additional observations from a re-analysis of the deposited data

How the results depend on the processing

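With the replicate block, which pairs libraries of 1 number within a line, 617, 273, 2799 and 1708 genes passed for siACAT1-1 and siACAT1-2 in UM-UC-3 and then T24 cells, against 2, 11, 25 and 54 without it. The mean of the 4 comparisons gave 2500 against 45, the difference of effect between lines 21 against 0, and the siRNA difference 4141 against 515. Of the 7 tested cadherins and catenins, 6 passed between the lines with the block and also with the mean of the 3 treatments (3 without either), 2 for siACAT1-1 in T24 cells, 2 in the mean and 2 in the siRNA difference (0 each without). With no filter on low counts the genes passing were 167, 58, 463, 180, 383, 29 and 884 in the same order, with 1 of the 7 for siACAT1-1 in T24 cells and 2 in the siRNA difference. DESeq2 gave 18, 37, 393, 251, 315, 1 and 1298, with 2 of the 7 in the siRNA difference. With only the 9 libraries of T24 cells, 1 and 2 genes passed. The cause was not tested.

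Apart from leaving out single libraries, these alternatives turned a direction: *CTNND1* with siACAT1-2 in T24 cells (0.0052) was -0.0026 with RLE scaling, -0.010 with no filter, -0.0025 with DESeq2 and -0.012 with the 9 T24 libraries. The *CTNNA1* siRNA difference (0.0036) was -0.0039 with RLE scaling and with DESeq2, and the *CDH11* difference of effect (0.02) was -0.092 with the block. Leaving out each library in turn gave 7591 to 9280 genes between the lines (2 to 4 of the 7), 2 to 4, 2 to 15, 2 to 452 and 13 to 89 against siNC, 6 to 143 in the mean, 0 to 1 in the difference of effect and 165 to 900 in the siRNA difference (0 to 2 of the 7). Some uncalled log2 fold changes turned direction in these fits. Between the lines *CDH11* ranged from -0.71 to 0.13. In UM-UC-3 cells with siACAT1-1 *CTNNA1* ranged from -0.027 to 0.42, *CTNNB1* from -0.13 to 0.25 and *CTNND1* from -0.040 to 0.16, and with siACAT1-2 *CDH2* from -0.029 to 0.062, *CDH11* from -2.24 to 0.24, *CTNNB1* from -0.073 to 0.33 and *CTNND1* from -0.051 to 0.22. With siACAT1-1 in T24 cells *CDH11* ranged from -1.44 to 0.19 and *CDH13* from -0.18 to 0.10, and with siACAT1-2 *CDH2* from -0.11 to 0.46, *CDH11* from -0.26 to 0.58 and *CTNND1* from -0.10 to 0.080. In the mean *CDH11* ranged from -0.49 to 0.20, *CDH13* from -0.63 to 0.26 and *JUP* from -0.22 to 0.10. In the difference of effect *CDH2* ranged from -0.017 to 0.45, *CDH11* from -0.92 to 0.66, *CDH13* from -0.96 to 0.77, *CTNNA1* from -0.14 to 0.20 and *JUP* from -0.16 to 0.44, and in the siRNA difference *CDH11* from -1.09 to 0.45 and *CTNNA1* from -0.056 to 0.11. *JUP* passed between the lines without any 1 of 4 libraries (UM-UC-3 siNC replicate 3, T24 siNC replicate 1, T24 siACAT1-1 replicate 1 or T24 siACAT1-2 replicate 3), with its lowest adjusted p 0.0413 in edgeR. The siRNA differences of *CDH2* and *JUP* passed without T24 siACAT1-2 replicate 2 (adjusted p = 0.0238 and 0.0372). Depth limited *CDH1*, *CDH3*, *CDH6*, *CDH11* and *JUP*, with at most 149 reads in a library.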
